A study of Mus musculus with 22 samples.

Results

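The genes for the subunits of glutamate and GABA receptors were examined in whole mouse brain. They were chosen by symbol: the AMPA (Gria), NMDA (Grin), kainate (Grik) and delta (Grid) genes, the metabotropic glutamate receptors (Grm), and the GABA-A (Gabr) and GABA-B (Gabbr) genes. Gabra6 was not included. The rule found 46 of 56748 genes, 26 for glutamate and 20 for GABA receptors. Of these, 42 had enough reads to be tested, and Gabrp, Grm6, Gabrr1 and Gabrr3 did not.

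The 22 libraries came from male C57BL/6J mice aged to 17.5 months. Exposed (GW) mice were injected daily with 0.7 mg/kg pyridostigmine bromide, an acetylcholinesterase inhibitor, and 200 mg/kg permethrin, an insecticide acting on sodium channels, for 10 days from 10 weeks of age, as a model of Gulf War illness. Unexposed (Ctrl) mice had vehicle. In old age, mice were given 30 mg/kg cannabidiol (CBD), a cannabinoid that does not intoxicate, in PBS with the detergent Tween, or this vehicle (Veh), on each of 28 days and then on alternate days over 2 more weeks. Lipopolysaccharide (LPS) from E. coli at 0.33 mg/kg, a bacterial wall component that provokes systemic inflammation, or PBS was given 24 h before the brain was taken. GWCBD30LPS (4 mice) had exposure, CBD and LPS, and GWCBD30 (4) had exposure, CBD and PBS. GWVehLPS (4) had exposure, vehicle and LPS, and GWVeh (4) had exposure, vehicle and PBS. CtrlVehLPS (3) had LPS without exposure, and CtrlVeh (3) had neither. All controls carried the vehicle injections, and CBD was analysed in exposed mice only. The labels number the mice of a group and say nothing of litters or cages.

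Glutamate is the main excitatory transmitter of the brain and GABA the main inhibitory one. AMPA, kainate, NMDA and GABA-A receptors are ion channels assembled from several subunits, and the subunits chosen set a channel's speed, calcium entry, drug response and place in the cell. Metabotropic glutamate receptors and the GABA-B receptor instead signal through G proteins, and delta receptors hold synapses together by binding cerebellins. Which subunits a neuron makes differs between brain regions, so in whole brain the level of a subunit follows both its expression per cell and the regions in the sample.

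Library totals ran from 17.2 to 31.2 M counts (median 21.6 M). The 10 general neuron markers, Snap25, Rbfox3 and Map2 among them, summed to 8009 to 8193 CPM in GWCBD30LPS, 7324 to 7848 CPM in GWCBD30, 7299.97 to 8347 CPM in GWVehLPS, 7612 to 7936 CPM in GWVeh, 7639 to 8255 CPM in CtrlVehLPS and 7568 to 7813 CPM in CtrlVeh. CtrlVehLPS replicate 1 stood apart. Its 8 cerebellar markers summed to 45.8 CPM, against 663 to 1180.03 CPM in the other 21 libraries, and 8 markers of exocrine pancreas summed to 292 CPM, against 2.76 to 4.61 CPM. Results that turn on this library are given with and without it, except levels and class sums, which are given with it. The 7 olfactory bulb markers summed to 15.8 to 38.5 CPM in GWCBD30LPS, 18.6 to 29.2 CPM in GWCBD30, 17.1 to 49.7 CPM in GWVehLPS, 20.4 to 22.3 CPM in GWVeh, 41.2 to 102 CPM in CtrlVehLPS and 19.5 to 23.9 CPM in CtrlVeh. Their part in the LPS comparisons was not tested apart from that of the cerebellar markers. With marker scores of both regions as covariates, calls over all genes for LPS in control mice fell from 99 to 41. In exposed CBD mice such calls rose from 1 to 18. In whole tissue, fewer cells of a type and less RNA per cell cannot be told apart.

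Levels were compared between genes as CPM (counts per M counts of the library, scaled by TMM) per kilobase of exon, over the 22 libraries. Exon length joined the exons of all annotated transcripts of a gene, so the order of genes and classes depends on it. The class with the highest summed level was GABA-A (265 CPM per kb), followed by GABA-B (161) and AMPA (161), NMDA (99.7), metabotropic glutamate (88.6) and kainate (69.0) genes. The rho genes, known mainly from retina, summed to 0.645 CPM per kb. The plot of levels by class shows the genes from highest to lowest within each class.

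**Figure D1:**
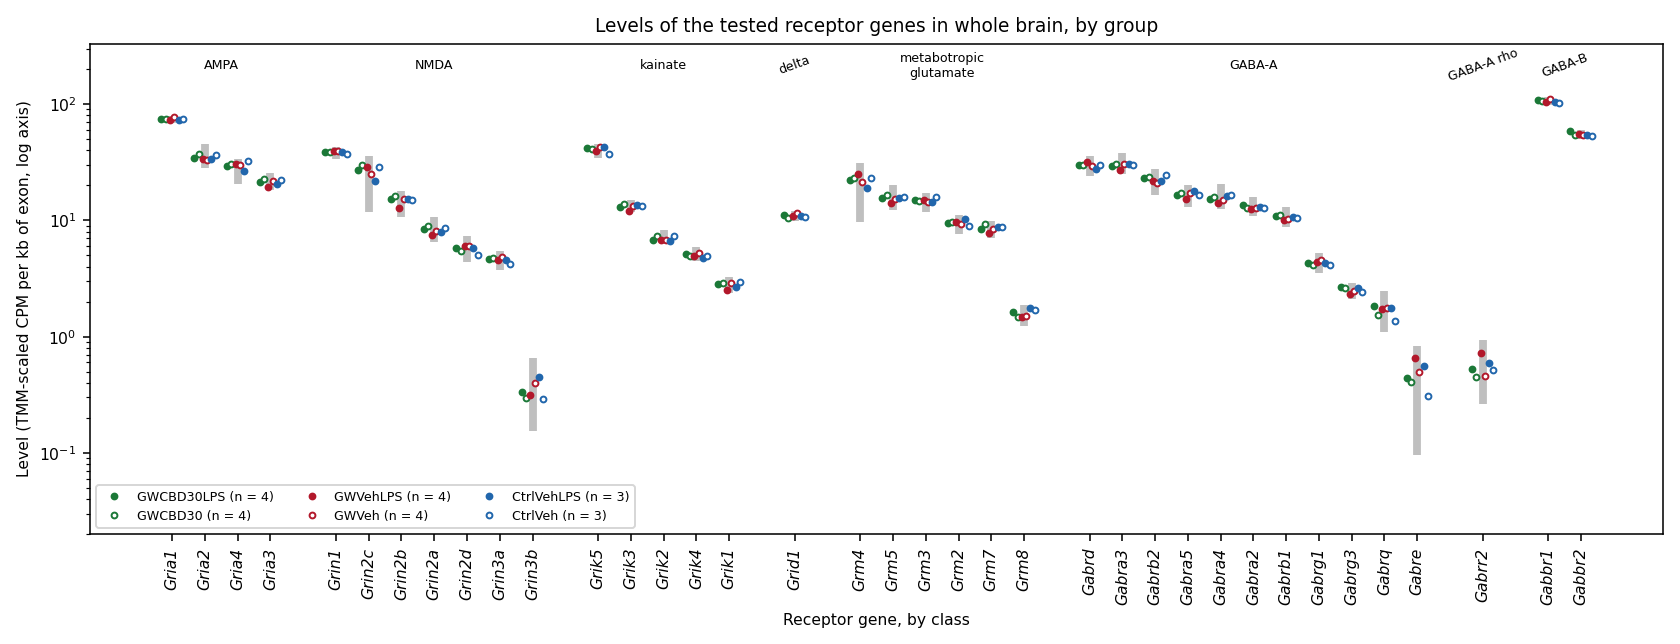
Level of each of 37 tested receptor genes, in CPM per kb of exon on a log axis, by receptor class. Points are group means (green GWCBD30LPS and GWCBD30, red GWVehLPS and GWVeh, blue CtrlVehLPS and CtrlVeh, filled with LPS and open without, n = 4, 4, 4, 4, 3 and 3), and grey bars run from the lowest to the highest of the 22 libraries. Gabbr1 (mean 106.4 CPM per kb) stood highest and Grin3b (0.345) lowest, and the long bars of Grin2c and Grm4 reach down to 1 library.

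Among AMPA genes, which carry most fast excitation, Gria1 (GluA1) was highest at 74.4 ± 2.79 CPM per kb (SD, n = 22), above Gria2 (GluA2, the subunit that blocks calcium entry) in 22 of 22 libraries. This order rests on exon length: in mean CPM not divided by length, Gria2 (542.2) was above Gria1 (449.8). Gria2 stood at 34.9 ± 3.68, Gria4 at 29.9 ± 2.84 and Gria3, the lowest, at 21.4 ± 1.86 CPM per kb. Gria4 exceeded Gria3 in 21 of 22 libraries. The summed level of the 4 genes was 159 ± 8.52 in GWCBD30LPS, 166 ± 10.4 in GWCBD30, 156 ± 3.61 in GWVehLPS, 162 ± 5.04 in GWVeh, 154 ± 7.25 in CtrlVehLPS and 166 ± 6.03 in CtrlVeh CPM per kb (SD). The largest SD was that of GWCBD30.

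Among NMDA genes, Grin1, the obligatory subunit, was highest at 38.7 ± 2.49 CPM per kb. Grin2c (GluN2C), a subunit of cerebellar granule cells, came next at 27.0 ± 5.39, above Grin2b (GluN2B, 14.97 ± 1.67) in 21 of 22 libraries. Grin2a (GluN2A) stood at 8.27 ± 0.861, below Grin2b in 22 of 22, and Grin3b was lowest at 0.345 ± 0.124 CPM per kb. The place of Grin2c rests on exon length: in mean CPM not divided by length, Grin2b (372) and Grin2a (148) were above Grin2c (136). For Grin1 the exon length used was 9.7 kb, while its longest transcript has 4.28 kb. Of the exon bases of Grin3b, 32.1% overlapped Tmem259 on the opposite strand, and 13.5% of those of Grin1 overlapped Grin1os. The strand setting of the counting was not stated, so reads of these pairs cannot be told apart. Class sums were 100.1 ± 5.43 in GWCBD30LPS, 104 ± 7.38 in GWCBD30, 99.3 ± 6.26 in GWVehLPS, 99.4 ± 1.06 in GWVeh, 94.1 ± 10.3 in CtrlVehLPS and 99.5 ± 6.67 in CtrlVeh CPM per kb (SD). The lowest sum of any library, 84.8, was that of CtrlVehLPS replicate 1, which lowers the mean of its group.

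The kainate genes had Grik5 (GluK5), a partner subunit that needs another kainate subunit to form a channel, highest at 41.0 ± 3.11 CPM per kb, and Grik1 (GluK1) lowest at 2.80 ± 0.222, and each of the 5 genes exceeded the next in 22 of 22 libraries. Their sums were 70.0 ± 2.66 in GWCBD30LPS, 70.0 ± 4.83 in GWCBD30, 66.3 ± 1.71 in GWVehLPS, 71.0 ± 1.58 in GWVeh, 70.3 ± 2.69 in CtrlVehLPS and 65.8 ± 1.70 in CtrlVeh CPM per kb (SD). Of the delta class, Grid1 stood at 11.0 ± 0.642 CPM per kb.

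Metabotropic receptors were led by Grm4, a presynaptic receptor of cerebellar granule cells, at 22.4 ± 4.44 CPM per kb. Grm5, which couples to phospholipase C, stood at 15.5 ± 1.97. The place of Grm4 above Grm5 rests on exon length: in mean CPM not divided by length, Grm5 (159) was above Grm4 (134). Grm8 was the lowest tested gene of the class at 1.58 ± 0.166, and Grm6, a receptor of retinal bipolar cells, had 4 reads over all 22 libraries. The class summed to 88.1 ± 1.62 in GWCBD30LPS, 91.5 ± 3.58 in GWCBD30, 89.2 ± 4.16 in GWVehLPS, 86.9 ± 4.86 in GWVeh, 84.3 ± 5.45 in CtrlVehLPS and 91.5 ± 2.61 in CtrlVeh CPM per kb (SD). Here too CtrlVehLPS replicate 1 had the lowest sum of any library, 78.0, which lowers the mean of its group.

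Among GABA-A genes, Gabrd, the delta subunit of receptors outside synapses (30.0 ± 2.75), and Gabra3 (29.5 ± 3.26) could not be ordered, as Gabrd was above in 11 of 22 libraries. Gabra5 was above Gabra4 in 15 of 22. Gabrq (1.68 ± 0.411) and Gabre (0.483 ± 0.197), which are made in few nuclei, were lowest among tested genes, and Gabrp had 3 reads in all. Class sums were 266 ± 17.7 in GWCBD30LPS, 270.1 ± 28.6 in GWCBD30, 258 ± 9.02 in GWVehLPS, 260.1 ± 17.7 in GWVeh, 262 ± 25.7 in CtrlVehLPS and 273 ± 16.1 in CtrlVeh CPM per kb (SD).

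Several GABA-A genes lie in clusters in GRCm38: Gabrg1, Gabra2, Gabra4 and Gabrb1 at chr5:70751047-72149037 and Gabre, Gabra3 and Gabrq at chrX:72255999-72842602. Levels within a cluster were not alike. In the X cluster Gabra3 stood at 29.5 CPM per kb while its neighbours Gabrq and Gabre stood at 1.68 and 0.483.

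Gabbr1, the ligand-binding part of the GABA-B receptor (chr17:37045966-37075067), had the highest level of all 46 genes, 106 ± 4.30 CPM per kb, and Gabbr2, the part that couples to G proteins, had 55.0 ± 3.09. The sums of the pair were 167 ± 6.79 in GWCBD30LPS, 160.4 ± 7.78 in GWCBD30, 160.5 ± 1.70 in GWVehLPS, 165 ± 6.65 in GWVeh, 159 ± 4.34 in CtrlVehLPS and 154 ± 3.19 in CtrlVeh CPM per kb (SD). Receptor genes had a lower median variation between mice of a group than all tested genes, without matching for expression level, whose part was not tested. Their biological coefficient of variation in the edgeR fit had a median of 0.0873 over 42 genes, against 0.114 over 20026, and ran from 0.0578 for Gabbr1 to 0.368 for Gabre.

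The first question was whether LPS altered the receptor genes after 24 h. In 4 LPS comparisons (control, exposed vehicle and exposed CBD mice, and the average of the 3) 0 of 42 receptor genes passed an adjusted p of 0.05 with edgeR's quasi-likelihood test and Benjamini-Hochberg adjustment over 20026 genes, and DESeq2 also called 0. Of all genes, 0.494% passed in control mice, 0.939% in exposed vehicle mice, 0.00499% in exposed CBD mice and 3.52% in the average. Higher with LPS were 0.414%, 0.829%, 0.00499% and 2.49% of all genes in that order, and lower were 0.0799%, 0.110%, 0% and 1.03%. At an unadjusted p under 0.05, edgeR gave 5, 4, 0 and 5 receptor genes of 42 in that order, where 12.2%, 10.4%, 8.22% and 17.8% of all genes did, and DESeq2 gave 5, 4, 0 and 5. The median log2 change of the 42 genes was 0.02, -0.03, -0.03 and -0.03 in that order, against -0.0041, -0.0047, -0.0046 and -0.0072 over all genes. The 95% interval lay wholly within 1.5-fold either way for 35, 36, 36 and 40 of the 42.

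In control mice the receptor gene with the smallest p was Gria4 (GluA4, chr9:4417896-4796234), a subunit of fast AMPA receptors. Gria4 had 130.3, 194 and 177 CPM in CtrlVehLPS, against 203, 209 and 204 CPM in CtrlVeh. All 3 LPS libraries were below all 3 PBS libraries, and replicate 1 was the lowest by far. The log2 difference was -0.30 ± 0.10 (SE, 95% interval -0.50 to -0.10, adjusted p = 0.169, edgeR). Without CtrlVehLPS replicate 1 it was -0.15 (adjusted p = 0.486) and without replicate 2 it was -0.42 (adjusted p = 0.0365), and adjusted p over 11 alternatives ran from 0.0152 to 0.655.

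Grik5, a kainate subunit gene, was higher in value. Grik5 had 230.0, 200.0 and 228 CPM in CtrlVehLPS, against 190.5, 186 and 201 CPM in CtrlVeh. Replicate 3 of CtrlVeh exceeded replicate 2 of CtrlVehLPS, and the difference was 0.19 ± 0.08 (SE, adjusted p = 0.307, edgeR), with 0.12 when the regional scores were covariates. In all, 6 of 42 receptor genes (14.3%) did not overlap between the groups, where 17.3% of all genes did not. Grm2, Gabrq and Gabre among them were higher and Gria4 lower with LPS. The 3 serotonin neuron markers (Tph2, Slc6a4 and Fev), which are made in few nuclei too, summed to 16.8 to 32.1 CPM in CtrlVehLPS, against 6.03 to 12.8 CPM in CtrlVeh, without overlap, and 0 of 3 were called. Their part in these values was not tested.

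In exposed vehicle mice Grin2b (GluN2B, chr6:135713233-136173511), the NMDA subunit with slow currents that binds CaMKII, led by p. Grin2b had 350.3, 266, 331 and 323 CPM in GWVehLPS, against 323, 367, 436 and 404 CPM in GWVeh. The lowest GWVeh library lay below 3 of the 4 GWVehLPS libraries, so the groups overlapped. The log2 difference was -0.27 ± 0.09 (SE, 95% interval -0.44 to -0.09, adjusted p = 0.163, edgeR). It was -0.34 without GWVeh replicate 1 (adjusted p = 0.0333) and -0.26 with no filter on low counts (adjusted p = 0.00507, edgeR). Over 14 alternatives the difference ran from -0.34 to -0.19, and adjusted p ran from 0.00507 to 0.456.

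Grik1 had 17.2, 17.3, 16.05 and 17.6 CPM in GWVehLPS, against 17.9, 19.3, 21.9 and 19.2 CPM in GWVeh. For this kainate subunit every LPS library was below every PBS library, with a difference of -0.20 ± 0.08 (SE, adjusted p = 0.349, edgeR). Gria3 had 209, 181, 182 and 193 CPM in GWVehLPS, against 195, 204, 228 and 226 CPM in GWVeh. The first LPS library exceeded 2 PBS libraries, and the AMPA subunit's difference was -0.16 ± 0.07 (SE, adjusted p = 0.421, edgeR). Gria1, Grik3 and Grik1 were the 3 of 42 genes (7.14%) without overlap, all lower with LPS, where 5.87% of all genes did not overlap. In Gria1 the LPS libraries held 447, 443, 451 and 422 CPM and the PBS libraries 469, 476, 469.7 and 461 CPM, a difference of -0.09 ± 0.05 (SE, adjusted p = 0.581, edgeR).

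In exposed CBD mice the 3 genes with the smallest p were Gabbr2, Grm7 and Grik2. Gabbr2 had 403, 360.0, 395 and 399 CPM in GWCBD30LPS, against 352, 375, 398 and 332 CPM in GWCBD30. The ranges overlapped, and the difference was 0.10 ± 0.06 (SE, adjusted p = 0.693, edgeR), and 0.05 without GWCBD30 replicate 4. Grm7, a presynaptic brake on glutamate release, differed by -0.12 ± 0.08 (adjusted p = 0.709, edgeR) and the kainate subunit gene Grik2 by -0.10 ± 0.07 (adjusted p = 0.726, edgeR). Grik2 had -0.04 without GWCBD30 replicate 4 and -0.16 without GWCBD30LPS replicate 2. In this arm 0 of 42 genes were free of overlap, where 6.24% of all genes were.

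Averaged over the arms, Grik1 differed by -0.14 ± 0.05 (SE, adjusted p = 0.125, edgeR), Gria3 by -0.12 ± 0.04 (adjusted p = 0.129) and Gria4 by -0.12 ± 0.05 (adjusted p = 0.215). Without CtrlVehLPS replicate 1, Gria4 had -0.07 and Gria3 passed, at -0.16 (adjusted p = 0.0131, edgeR), and its adjusted p over 27 alternatives ran from 0.0131 to 0.277. All 4 AMPA genes had negative values in the average, from -0.12 for Gria3 to -0.04 for Gria1, and both GABA-B genes positive ones (0.01 and 0.05). Of the 8 microglia markers 7 rose in the same average, C1qb by 0.78 ± 0.05 (SE, adjusted p = 1.55e-12, edgeR).

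**Figure D2:**
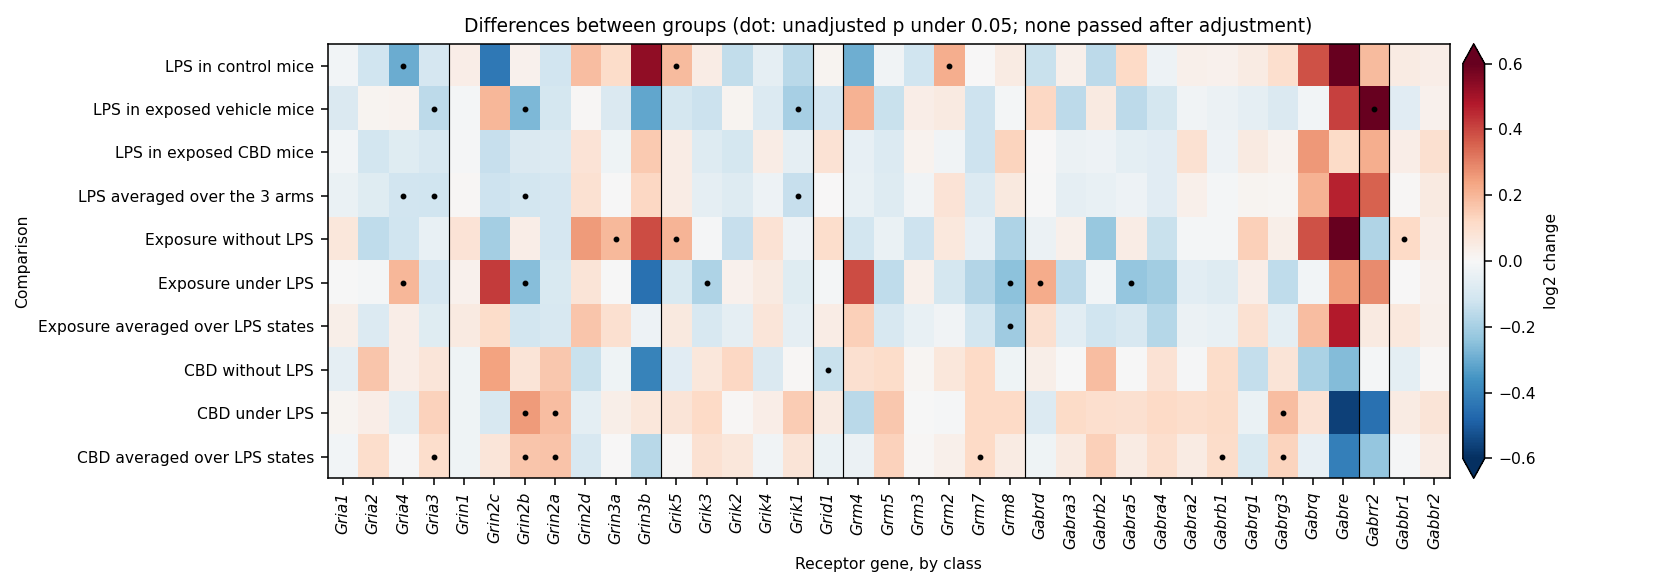
Log2 difference (colour, red higher and blue lower in the group named first, clipped at the ends of the scale) for 37 receptor genes in columns and 10 comparisons in rows, LPS against PBS, exposed against unexposed, and CBD against vehicle. Dots mark an unadjusted p under 0.05 (0 to 6 genes a row), and 0 of the 37 passed after adjustment in each row.

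The second question was whether the exposure left a difference in old age. Of the 42 genes 0 passed without LPS, under LPS or in the average of both, with edgeR and with DESeq2, where 0%, 0.00499% and 0.0300% of all genes passed. In the average 0.00499% were higher and 0.0250% lower in exposed mice. At an unadjusted p under 0.05, edgeR gave 3, 7 and 1 receptor genes, against 8.80%, 7.73% and 7.76% of all genes, and DESeq2 gave 5, 7 and 1. The 95% interval was within 1.5-fold for 35, 36 and 41 of 42 genes, and the median was -0.02, -0.01 and -0.03, against 0.00098, 0.0018 and 0.0055 over all genes.

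Without LPS the leading gene was Grik5 (chr7:25009849-25072346). Grik5 had 234, 220.2, 229 and 203 CPM in GWVeh, against 190.5, 186 and 201 CPM in CtrlVeh. Every exposed library was above every control library, and Grik5 was the 1 of 42 genes (2.38%) without overlap, where 9.40% of all genes had none. The difference was 0.20 ± 0.07 (SE, 95% interval 0.06 to 0.35, adjusted p = 0.453, edgeR). Grin3a had 53.7, 66.8, 55.2 and 62.4 CPM in GWVeh, against 56.4, 54.0 and 46.0 CPM in CtrlVeh. For this NMDA subunit, which lowers calcium entry, the ranges overlapped, at 0.19 ± 0.08 (SE, adjusted p = 0.504, edgeR), and 0.11 without CtrlVeh replicate 3. Gabbr1 had 876, 899, 851 and 800.0 CPM in GWVeh, against 815, 779.5 and 769.9 CPM in CtrlVeh. The lowest exposed library was below the highest control, at 0.12 ± 0.05 (SE, adjusted p = 0.534, edgeR).

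Under LPS Grin2b led again, and this comparison shares the GWVehLPS libraries with the LPS comparison in exposed mice. Grin2b had 350.3, 266, 331 and 323 CPM in GWVehLPS, against 432, 356 and 349 CPM in CtrlVehLPS. A single exposed library lay just above the lowest control library. The difference was -0.26 ± 0.09 (SE, adjusted p = 0.474, edgeR), and -0.15 without CtrlVehLPS replicate 1, over 1.5 times smaller. With no filter on low counts its adjusted p was 0.0389, in a range from 0.0389 to 1 over 12 alternatives. Gabrd had 79.5, 99.1, 86.4 and 104 CPM in GWVehLPS, against 69.1, 83.6 and 84.7 CPM in CtrlVehLPS. The lowest value was in CtrlVehLPS replicate 1, and the difference of 0.22 ± 0.09 (SE, adjusted p = 0.532, edgeR) was 0.13 without it. Grik3 had 109, 108, 110.2 and 105 CPM in GWVehLPS, against 128, 121 and 119 CPM in CtrlVehLPS. Every exposed library was lower for this kainate subunit, -0.18 ± 0.07 (SE, adjusted p = 0.544, edgeR), with -0.06 when the regional scores were covariates, and it was the 1 of 42 genes without overlap, where 5.41% of all genes had none.

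In the average of both LPS states the smallest p belonged to Grm8, a presynaptic receptor at low level in brain. Grm8 had 13.9, 16.5, 13.9 and 14.5 CPM in GWVehLPS and 12.1, 16.5, 15.6 and 15.1 CPM in GWVeh, against 18.7, 16.3 and 17.2 CPM in CtrlVehLPS and 17.4, 18.5 and 14.7 CPM in CtrlVeh. Most exposed libraries lay below most controls, with overlap. The difference was -0.21 ± 0.08 (SE, 95% interval -0.37 to -0.06, adjusted p = 0.597, edgeR). Grm7 had -0.11 ± 0.06 (adjusted p = 0.663) and Grik3 -0.10 ± 0.05 (adjusted p = 0.664, edgeR). Grm7 had -0.07 without CtrlVehLPS replicate 1, and Grik3 -0.06 without CtrlVeh replicate 2 and -0.04 with the regional scores as covariates.

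The third question was whether CBD altered receptor genes in exposed mice. Again 0 of 42 passed, by edgeR and by DESeq2, without LPS, under LPS and in the average, where 0%, 0.240% and 0% of all genes passed. Under LPS 0.0150% were higher and 0.225% lower with CBD. Unadjusted p values under 0.05 numbered 1, 3 and 6 with edgeR, against 6.43%, 7.10% and 8.35% of all genes, and 1, 3 and 7 with DESeq2. Medians were 0.04, 0.05 and 0.04 on the log2 scale, against 0.00050, 0.00044 and 0.000048 over all genes, and 25, 28 and 27 of the 42 values were positive. The share of positive values over all genes was not counted, and the sign counts were not tested. The 95% interval lay within 1.5-fold for 35, 37 and 39 of 42 genes.

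Under LPS Grin2b had the smallest p. Grin2b had 375, 383, 362 and 398 CPM in GWCBD30LPS, against 350.3, 266, 331 and 323 CPM in GWVehLPS. Every CBD library was above every vehicle library, and the CBD group was close together while vehicle replicate 2 was lowest. The log2 difference was 0.26 ± 0.09 (SE, 95% interval 0.08 to 0.43, adjusted p = 0.371, edgeR), and 0.18 without GWVehLPS replicate 2. With no filter on low counts its adjusted p was 0.0154, in a range from 0.0154 to 0.734 over 14 alternatives. The vehicle libraries here are those that were low in both earlier Grin2b comparisons, so the 3 differences are not independent. Among them, GWVehLPS replicate 2 was the lowest of the 22 libraries for 4 of 42 receptor genes (9.97% of all genes). It was the highest for 0 of 42 (9.55% of all genes). Against PBS libraries of the same arm, GWCBD30LPS lay inside or below the range, since GWCBD30 had 382, 382, 407 and 443 CPM.

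Grin2a had 152, 162, 144 and 153 CPM in GWCBD30LPS, against 152, 118, 133 and 134 CPM in GWVehLPS. The lowest CBD library was below the highest vehicle library, and the subunit gene of mature NMDA receptors differed by 0.18 ± 0.08 (SE, adjusted p = 0.641, edgeR). Gabrg3, a GABA-A gamma subunit gene, differed by 0.19 ± 0.08 (SE, adjusted p = 0.584, edgeR). Grin2b and Grik1 were the 2 of 42 genes (4.76%) without overlap, both higher with CBD, where 4.27% of all genes had none. Grik1 held 18.5, 18.7, 18.9 and 19.6 CPM in GWCBD30LPS, against 17.2, 17.3, 16.05 and 17.6 CPM in GWVehLPS.

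Without LPS the 3 leading genes were Grid1, Grin2a and Grik2. Grid1 had 59.2, 66.2, 68.0 and 59.2 CPM in GWCBD30, against 65.6, 72.0, 70.9 and 68.3 CPM in GWVeh. The ranges overlapped, and this receptor gene of the delta class had -0.13 ± 0.06 (SE, adjusted p = 0.752, edgeR). Grin2a had 154, 149, 151 and 192 CPM in GWCBD30, against 133, 133, 153 and 159 CPM in GWVeh. GWCBD30 replicate 4 was above all others, and the difference of 0.16 ± 0.08 (SE, adjusted p = 0.752, edgeR) was 0.07 without it. Grik2 differed by 0.13 ± 0.07 (SE, adjusted p = 0.765, edgeR), and by 0.07 without GWCBD30 replicate 4. None of the 42 genes was free of overlap (0%), where 3.54% of all genes were. In the average, Grin2a had 0.17 ± 0.06 (SE, adjusted p = 0.416), Grin2b 0.17 ± 0.06 (adjusted p = 0.458) and Gabrg3 0.13 ± 0.06 (adjusted p = 0.549, edgeR).

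**Figure D3:**
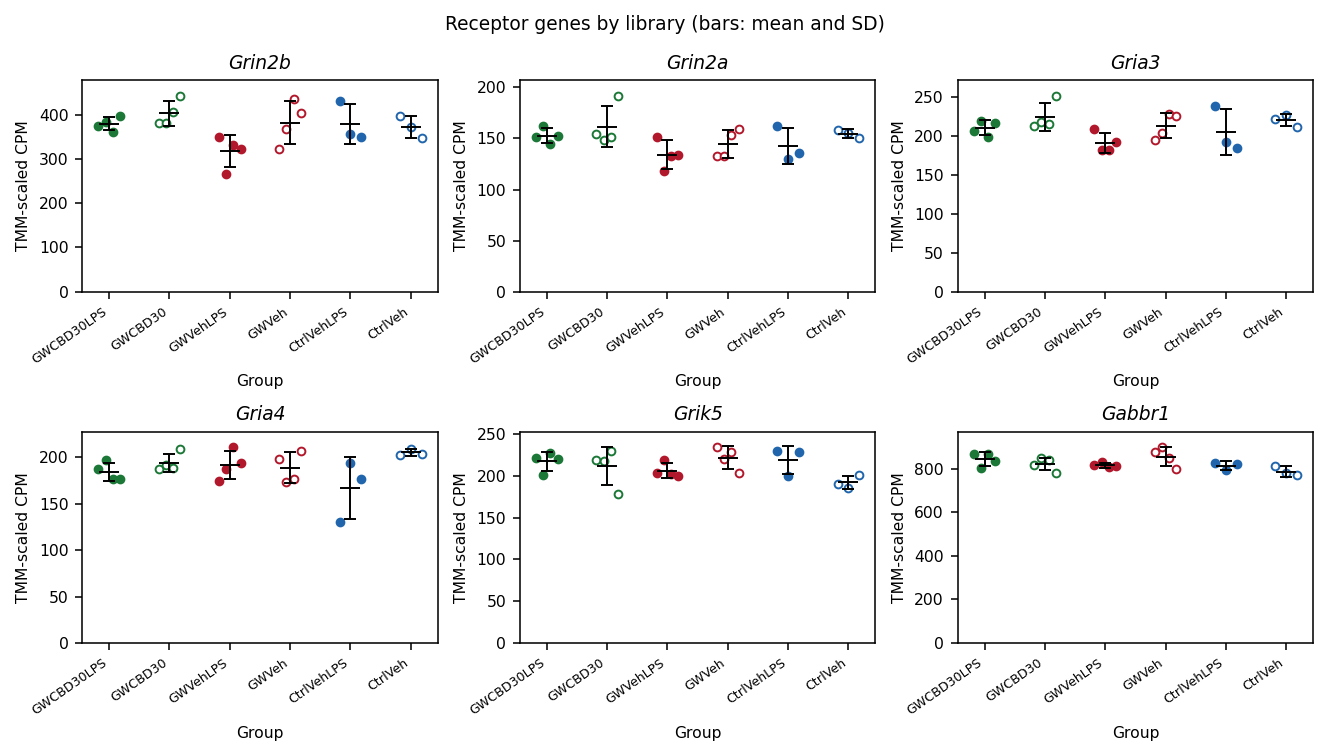
TMM-scaled CPM of Grin2b, Grin2a, Gria3, Gria4, Grik5 and Gabbr1 in each library (points, filled with LPS) by group, with the group mean and SD (bars, n = 4, 4, 4, 4, 3 and 3 from left to right). Grin2b in GWVehLPS (266 to 350.3 CPM) lies below GWCBD30LPS (362 to 398), and Gria4 in CtrlVehLPS is at 130.3 CPM in 1 library.

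Differences between the LPS responses were tested as interactions. For exposure 0 of 42 genes passed with edgeR and with DESeq2 (0% of all genes), with 6 at an unadjusted p under 0.05 by both tools (8.43% of all genes). The smallest p values were those of Grik5 (-0.29 ± 0.10 SE, adjusted p = 0.422, edgeR), Gria4 (0.32 ± 0.13, adjusted p = 0.496) and Grin2b (-0.30 ± 0.13, adjusted p = 0.549). With the regional scores as covariates Gria4 had 0.13 and Grin2b -0.17, and without CtrlVehLPS replicate 1 they had 0.17 and -0.19. For CBD 0 of 42 passed with either tool (0.0449% of all genes), with 1 at an unadjusted p under 0.05 by edgeR (5.69% of all genes) and 0 by DESeq2. Grid1 had 0.18 ± 0.09 (SE, adjusted p = 0.873, edgeR), Grik5 0.15 ± 0.10 (adjusted p = 0.925) and Gabbr1 0.11 ± 0.07 (adjusted p = 0.925). Without GWCBD30 replicate 4 Grik5 had 0.07. Among the 6 groups together 0 of 42 genes differed with either tool (1.93% of all genes), with 2 at an unadjusted p under 0.05 by both (13.3% of all genes). Grin2b had adjusted p = 0.215, Gria3 0.372 and Grin2a 0.375 (edgeR).

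**Figure D4:**
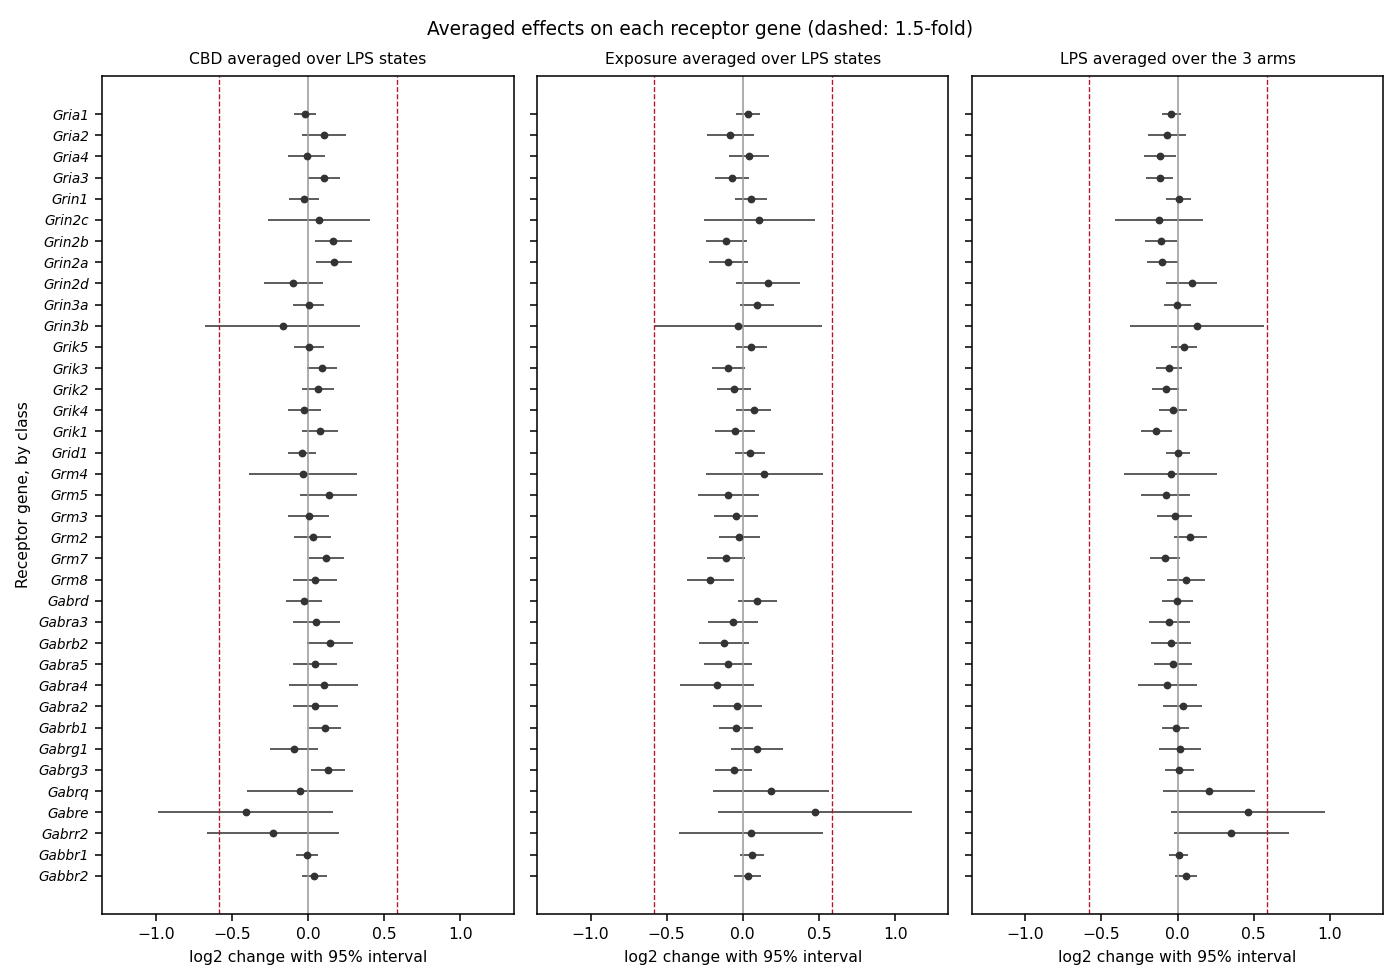
Averaged log2 difference of 37 receptor genes (points) with its 95% interval (lines) for CBD, exposure and LPS, with dashed lines at 1.5-fold. Intervals lie inside the dashed lines for 34, 36 and 35 of 37 genes, and those that reach past them belong to Gabre, Gabrr2 and Grin3b, all at low level.

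Receptor genes also followed the cerebellar transcripts of a library. A cerebellar score, the mean log2 CPM of 8 cerebellar neuron genes none of which is a receptor subunit, was 1.27 in CtrlVehLPS replicate 1 and 5.69 to 6.56 in the other 21 libraries. Within groups, and fitted together with an olfactory bulb score, 7 of 42 receptor genes followed this score (adjusted p under 0.05, edgeR), where 4.08% of all genes did, and DESeq2 called 9. At an unadjusted p under 0.05 there were 21 of 42, where 16.2% of all genes were. Of the 7, 5 rose with the score and 2 fell, in values of log2 per unit of score.

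Grm4 (chr17:27422387-27521403) rose by 0.31 ± 0.05 (SE, adjusted p = 0.000767), with 57.9 CPM in CtrlVehLPS replicate 1, against 107.9 to 185 CPM elsewhere. Grin2c rose by 0.28 ± 0.05 (adjusted p = 0.00306), with 59.4 CPM there, against 100.1 to 179.9 CPM. Gria4, a subunit of Bergmann glia and granule cells, rose by 0.12 ± 0.02 (adjusted p = 0.00153). Gabra3, an alpha subunit of forebrain and brainstem nuclei, fell by 0.14 ± 0.03 (adjusted p = 0.000931) and Gria3 fell by 0.09 ± 0.02 (adjusted p = 0.0165, edgeR).

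Since 1 library spans most of the score's range, the slopes were fitted again without CtrlVehLPS replicate 1. All 7 kept their sign, and 4 of them passed. Among these were Grin2c at 0.97 ± 0.11 (SE, adjusted p = 2.68e-07, edgeR), Grm4 at 0.95 ± 0.11 (adjusted p = 2.68e-07) and Gabra3 at -0.41 ± 0.10 (adjusted p = 0.0426). Grm3, a receptor shared by neurons and astrocytes, also passed, at -0.47 ± 0.12 (adjusted p = 0.0375), so 5 of 42 did, where 0.849% of all genes did. Gria4 (0.19 ± 0.10, adjusted p = 0.609) and Gria3 (-0.21 ± 0.10, adjusted p = 0.50, edgeR) did not pass. Gria3 also missed the threshold without CtrlVehLPS replicate 3 (adjusted p = 0.0914) and without GWVehLPS replicate 1 (adjusted p = 0.0541), in a range from 0.00484 to 0.50 over 26 alternatives, the lowest by DESeq2. Without CtrlVehLPS replicate 2, 11 genes passed. The slopes of Grm4, Grin2c, Gabra3, Gria4 and Gria3 were over 1.5 times steeper without CtrlVehLPS replicate 1, and the plot against the cerebellar score shows where that library lies.

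**Figure D5:**
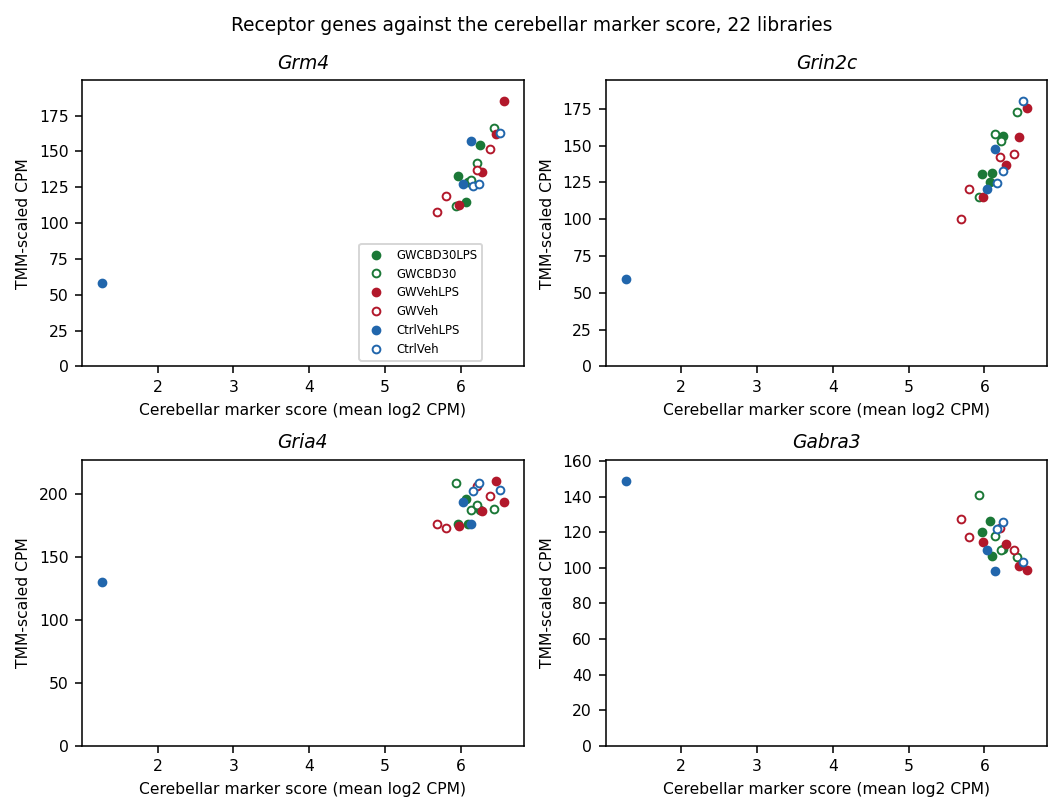
TMM-scaled CPM of Grm4, Grin2c, Gria4 and Gabra3 against the cerebellar marker score (mean log2 CPM of 8 genes) in 22 libraries, coloured by group and filled with LPS. The lone point at a score of 1.27 is CtrlVehLPS replicate 1. The other 21 lie at 5.69 to 6.56, where Grm4 and Grin2c climb with the score.

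The promoters of genes on either side are shown because they followed the score in the fit to all libraries: Grin2c and Gria4, which rose, and Gabra3, which fell. Of these, Gria4 did not pass without CtrlVehLPS replicate 1 (adjusted p = 0.609, edgeR). Each promoter window is 250 bases before a RefSeq start on the coding strand (GRCm38.p6), with GC boxes (GGGCGG), E boxes (CANNTG) and TATA boxes (TATAAA) found on either strand in capitals. Adjoining or overlapping matches run together.
Grin2c, chr11:115267244-115267493, strand minus: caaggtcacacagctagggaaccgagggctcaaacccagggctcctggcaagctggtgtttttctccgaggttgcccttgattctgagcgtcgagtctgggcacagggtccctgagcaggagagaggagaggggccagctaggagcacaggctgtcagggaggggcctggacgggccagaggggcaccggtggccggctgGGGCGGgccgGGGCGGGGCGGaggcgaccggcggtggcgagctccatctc
Gria4, chr9:4796235-4796484, strand minus: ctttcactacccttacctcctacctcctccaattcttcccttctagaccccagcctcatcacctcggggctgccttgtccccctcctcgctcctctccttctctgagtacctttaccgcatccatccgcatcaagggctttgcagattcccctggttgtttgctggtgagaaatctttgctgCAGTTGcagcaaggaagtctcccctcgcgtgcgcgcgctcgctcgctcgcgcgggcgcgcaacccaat
Gabra3, chrX:72656808-72657057, strand minus: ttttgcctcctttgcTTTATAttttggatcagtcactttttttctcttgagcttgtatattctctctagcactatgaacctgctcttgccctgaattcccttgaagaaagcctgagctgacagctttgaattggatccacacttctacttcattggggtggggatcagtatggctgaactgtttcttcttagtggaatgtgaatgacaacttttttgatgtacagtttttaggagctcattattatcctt
The Grin2c window held 3 GC boxes and 0 E boxes, the Gria4 window 1 E box and 0 GC boxes, and the Gabra3 window 1 TATA box, on the other strand as TTTATA, with neither of the others. Gabra3 has a second RefSeq start, whose window overlaps this one and shares the match. Of 32544 RefSeq promoter windows of the same length, 33% held a GC box, 66.2% an E box and 12.3% a TATA box. GC content was 68.8%, 58.8% and 39.2% in the order shown. Grm4 and Gria3 are named only.

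CtrlVehLPS replicate 1 was the lowest of all 22 libraries for 7 of 42 receptor genes (16.7%, against 9.56% of all genes), among them Grm4, Grin2c, Gria4, Gabrd and Grik4. It was the highest for 4 (9.52%, against 8.45% of all genes): Gabra3, Gabra5, Gabrg3 and Grm8, the last at 18.7 CPM. Its olfactory bulb score was 3.34, against 0.330 to 2.24 in the others. The slope on that second score called 0 of 42 receptor genes with edgeR and DESeq2 (0.0399% of all genes), with 2 at an unadjusted p under 0.05 by both (3.69% of all genes). Grik3 had 0.11 ± 0.04, Gabrg1 -0.15 ± 0.06 and Gabrr2 -0.33 ± 0.20 log2 per unit (SE, adjusted p = 0.9996 for each, edgeR), and Grik3 0.07 without GWCBD30LPS replicate 4.

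Among genes that serve the receptors, LPS altered 8 of 54, 6 of them in transmitter supply and uptake. In the average over the arms 3 of 10 genes of glutamate supply and uptake rose and 0 fell, 2 of 8 for GABA rose and 1 fell, 2 of 26 glutamate receptor partners rose and 0 fell, and 0 of 10 GABA receptor partners changed, where 2.49% of all genes rose and 1.03% fell. Slc6a11, the astrocytic GABA transporter GAT-3, rose by 0.30 ± 0.05 (SE, adjusted p = 0.000168, edgeR), and Slc6a13, the transporter GAT-2 of meninges, fell by 0.52 ± 0.10 (adjusted p = 0.00235). Glul, the glutamine synthetase of astrocytes, rose by 0.23 ± 0.04 (adjusted p = 0.00065), the astrocytic glutamate transporter gene Slc1a3 by 0.13 ± 0.04 (adjusted p = 0.0314) and the vesicular transporter gene Slc17a8 by 0.41 ± 0.12 (adjusted p = 0.0485). Abat, which breaks down GABA, rose by 0.13 ± 0.04 (adjusted p = 0.0374). Of the receptor partners, Cacng4 (an AMPA receptor auxiliary subunit) rose by 0.23 ± 0.05 (adjusted p = 0.00185) and Dlg4 (the scaffold PSD-95) by 0.11 ± 0.03 (adjusted p = 0.0456, edgeR). Astrocyte markers moved too: 3 of 8 rose, 0 fell, and the 8 summed to 1252 to 1365 CPM in GWCBD30LPS against 1095 to 1253 CPM in GWCBD30, 1288 to 1518 CPM in GWVehLPS against 1115 to 1302 CPM in GWVeh, and 1107 to 1384 CPM in CtrlVehLPS against 1185 to 1219.9 CPM in CtrlVeh. The serotonin neuron markers, of which 0 of 3 were called, summed to 23.5 to 27.7 CPM in GWCBD30LPS against 2.13 to 27.4 CPM in GWCBD30, 25.8 to 34.0 CPM in GWVehLPS against 2.84 to 31.6 CPM in GWVeh, and 16.8 to 32.1 CPM in CtrlVehLPS against 6.03 to 12.8 CPM in CtrlVeh. The part of both marker lists in these values was not tested. Without CtrlVehLPS replicate 1, an alternative chosen after seeing the data, 3 genes of glutamate supply rose, 3 of GABA supply rose and 1 fell, and 2 glutamate receptor partners rose. Dlg4 was then at 0.10 ± 0.03 (adjusted p = 0.0726, edgeR) and the other 7 named genes still passed.

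In single arms, Slc6a11 rose in control mice (0.44 ± 0.09 SE, adjusted p = 0.0159) and Slc1a3 in exposed vehicle mice (0.25 ± 0.06, adjusted p = 0.0307, edgeR), the 1 gene of these 54 called in each arm, and 0 were called in exposed CBD mice. Without CtrlVehLPS replicate 1, Slc6a11 in control mice was at 0.41 ± 0.10 (adjusted p = 0.057, edgeR). In the exposure, CBD and interaction comparisons 0 of the 54 were called by edgeR. With the cerebellar score, Homer3, a scaffold of Purkinje cells, rose by 0.56 ± 0.03 (adjusted p = 5.64e-15), Slc1a6, the glutamate transporter of Purkinje cells, by 0.48 ± 0.04 (adjusted p = 1.16e-11) and the AMPA receptor partner Shisa6 by 0.25 ± 0.03 (adjusted p = 4.4e-08), while Neto1 fell by 0.12 ± 0.03 (adjusted p = 0.00607) and Cnih3 by 0.13 ± 0.04 (adjusted p = 0.0485, edgeR). Without CtrlVehLPS replicate 1 Homer3, Slc1a6 and Shisa6 passed again, and Neto1 (-0.34 ± 0.12, adjusted p = 0.239) and Cnih3 (-0.33 ± 0.15, adjusted p = 0.525, edgeR) did not.

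GWCBD30 replicate 4 also had an unusual receptor profile, with a cerebellar score (5.94) inside the range of the others and the lowest serotonin neuron marker sum of the 22 libraries (2.13 CPM). GWVeh replicate 4 had a similar sum (2.84 CPM) and was the highest library for 0 and the lowest for 0 of 42 receptor genes. GWCBD30 replicate 4 was the highest of the 22 libraries for 13 of 42 receptor genes (10.5% of all genes) and the lowest for 7 (9.66% of all genes). Among the 13 were Gria2, Gria3, Grin2a, Grin2b, Grik2, Grm5, Grm7, Gabra4, Gabrb1 and Gabrb2. The 7 were Grin1, Grik5, Grid1, Grm2, Gabbr2, Gabrq and Gabre. Gria2 stood at 707 CPM there, against 438 to 607 CPM in the other 21 libraries, and Grin1 at 328 CPM, against 330.3 to 416 CPM. The longest GENCODE transcripts of the 13 genes had a median GC content of 42.0% (36.8% to 47.2%) and those of the 7 a median of 56.0% (45.03% to 61.7%), beside 48.4% for the other 22. The part of GC content and of these markers in this profile was not tested. Without this library the CBD comparisons still called 0 receptor genes, and Grin2a in the average was 0.13.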

How the data were processed

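RNA of whole brain from 22 mice was sequenced from stranded poly(A) libraries with paired reads of 150 bp, and RNA had an integrity number of at least 8.5, per the labels' protocols. The authors deposited whole-number counts per gene, not normalized. The genome was GRCm38 (mm10), per the submitters' processing notes, while how reads were aligned and assigned to genes, by which annotation and with or without strand, is not given in the sources used. Totals of 17.2 to 31.2 M counts make 3 counts worth 0.0963 to 0.175 CPM.

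Genes passing filterByExpr (20026) were scaled by TMM and tested with edgeR 4.0.16 (R 4.3.3) as a robust quasi-likelihood fit over 6 group means with 16 residual degrees of freedom. P values were adjusted by Benjamini-Hochberg over all 20026 genes, and an adjusted p under 0.05 was called. Standard errors came from the F statistic, and intervals are at 95%. Slopes used 2 marker scores, the mean log2 CPM (prior count 2) of listed markers, beside the group means. The code was tested on simulated data. Levels are CPM per kb of GENCODE M21 exon. DESeq2 1.42.0, RLE scaling, no filter, a replicate block, the scores as covariates and leaving out each library were alternatives. Named in each comparison were all called genes, up to 10, or the 3 with the smallest p, and in each class the highest and lowest level. Genes named for group overlap or for 1 library's profile were chosen after their values were seen. The receptor genes and all lists were chosen with earlier results of these data known. P values judge a difference or slope against the spread between samples within groups, estimated over all 6 groups together. Same-numbered samples were treated as unpaired: of 25 same-numbered pairs 1 had a correlation over 0.1. Differently numbered pairs were not compared, so this check cannot exclude a shared cage, litter or batch. Some receptor genes count in totals and are not reported here by name.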

Additional observations from a re-analysis of the deposited data

Results flagged for a closer look

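In 9 of 148 sets of 4 libraries (37 genes in each of 4 groups) a library lay far from the other 3, where chance gives about 5%. In GWCBD30 replicate 4, 7 genes were high: Gria2 at 707 CPM (others 527 to 546), Gria3 at 251 (213 to 218), Gabra2 at 119 (88.1 to 90.9), Gabra4 at 125 (84.5 to 90.7), Gabrb2 at 175 (141 to 146), Grin2a at 192 (149 to 154) and Grm3 at 52.5 CPM (41.0 to 42.9). In GWVeh, Grin2d was low in replicate 4, at 31.1 CPM (42.1 to 44.1), and Grm3 was low in replicate 1, at 36.2 CPM (46.7 to 47.3).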

How the results depend on the processing

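With no filter on low counts 1 receptor gene was called in each of 5 comparisons that otherwise had 0: Gria4 for LPS in control mice, and Grin2b for LPS in exposed vehicle mice, exposure under LPS, CBD under LPS and any group difference (edgeR). The cerebellar slope then called 11 genes. Leaving out 1 library gave 0 to 1 called gene for LPS in control mice, LPS in exposed vehicle mice and LPS averaged, and 5 to 11 for the cerebellar slope. The fit with a replicate block called 0 receptor genes in each group comparison and 10 on the cerebellar slope. As same-numbered samples were treated as unpaired, this fit is given only in this section. Of 944 alternative values of 49 named results, 931 kept direction and side of the threshold, 5 lost their call, 8 gained one and 0 changed sign, and the cause was not tested. The named results for any group difference have no sign, so only their side of the threshold could change.

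Counts over all genes moved more. LPS in control mice gave 99 calls, and 357 with no filter, 269 with DESeq2 and 41 with the covariates. In exposed vehicle mice 188 became 359 with no filter and 320 with DESeq2. In exposed CBD mice 1 became 64, 38, 16 with the replicate block and 18 with the covariates, and the LPS average 705 became 1062 and 1061. Exposure gave 0, 1 and 6 without LPS, under LPS and averaged, with 36, 118 and 44 under no filter and 6, 25 and 19 by DESeq2. CBD under LPS gave 48, with 138 under no filter, 108 by DESeq2 and 81 with the covariates, and CBD averaged 0, with 76, 26 and 14. The interactions gave 0 and 9, with 82 and 37 under no filter and 28 and 24 by DESeq2, and any group difference 387, with 1105 and 804. The replicate block gave 9, 9 and 11 for the exposure comparisons, 8 for CBD averaged and 15 for the CBD interaction. The covariates gave 0 and 0 for exposure under LPS and averaged, and 19 for the CBD interaction. With 3 to 4 mice a group, intervals of low genes such as Gabre reached past 1.5-fold, so a difference of that size lies within them.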
